A study of Arabidopsis thaliana with 9 samples.

Results

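The Aux/IAA and GH3 genes are 2 families of early auxin-responsive genes of Arabidopsis thaliana. The 36 members described here were chosen by name, with earlier results of these data known: 29 Aux/IAA genes (IAA1 to IAA20 and IAA26 to IAA34) and 7 GH3 genes (GH3.1 to GH3.6 and GH3.17), among 32678 genes with counts. Of these, 28 had enough counts to be tested, 22 Aux/IAA and 6 GH3 genes, among 20288 tested genes.

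Auxin acts through receptors of the TIR1/AFB family, which bind Aux/IAA proteins and mark them for destruction. Aux/IAA proteins are short-lived repressors that sit on auxin response factors (ARFs), so their loss releases the ARFs to switch genes on. Many Aux/IAA genes are themselves switched on by auxin within minutes, which makes a negative feedback loop. Several GH3 genes are also early auxin targets, and the GH3 enzymes studied as auxin-amido synthetases couple free auxin to amino acids, which lowers its active pool. Auxin signalling is known to take part in how nitrate shapes the root system.

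RNA sequencing was done on 7-day-old seedlings, about 10 pooled per sample, grown with 2.5 mM ammonium succinate as the nitrogen source. Treatments lasted 15 min and gave 3 groups of 3 libraries each: wild type with 10 mM KCl, wild type with 10 mM KNO3, and the icpk line with 10 mM KNO3. Labels describe icpk as an inducible triple mutant of CPK10, CPK30 and CPK32, which are protein kinases activated by calcium, that expresses CPK10(M141G)-DHA. The protocols name 10 µM of the inhibitor 3MBiP, given 2 min before treatment to block this engineered kinase, without stating for which samples. An icpk group with KCl was not analysed here. A changed nitrate response, a difference present before nitrate and an effect of the inhibitor cannot be told apart. Nothing in the labels says that replicates came from separate cultures, so p-values cover the spread among these libraries and that spread may be technical.

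Gene counts ranged from 5987352 to 19564785 per library, and the shallowest library, wild type KCl replicate 3, also had the highest share of records aligned at more than 1 place (80.5%, against a lowest share of 23.8%). CPK30 was 23.6 to 28.7 CPM (counts scaled to a common library size) in the wild type libraries and 2.84 to 3.74 CPM in the icpk libraries, and CPK32 was 137 to 269 and 18.8 to 25.1 CPM. CPK10 was 61.9 to 101 CPM in wild type and 149 to 166 CPM in icpk, where transcripts of the introduced copy cannot be told apart from the native gene. All 21 root marker genes and all 13 photosynthesis genes checked had counts in every library, which is what whole seedlings should give. The summed root markers were 415 to 483 CPM with KCl, 517 to 611 CPM after KNO3 in wild type and 393 to 484 CPM in icpk. Summed photosynthesis genes were 48598 to 58491, 30663 to 43493 and 42444 to 64831 CPM in the same order. Both sums therefore moved between the groups, and their part in the results below was not tested. In whole seedlings, fewer cells of a type and less RNA per cell cannot be told apart.

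The Aux/IAA genes share a short coding stretch for the core of the degron, the part of the protein that the receptors grip. The DNA word made of the codons GGN, TGG and CCN followed by CC (N is any base), read in frame on the coding strand, was present in 23 of 29 Aux/IAA members, in 0 of 7 GH3 members and in 34 of 27444 protein-coding genes (0.124%). Its letters were not found in IAA20 or in IAA30 to IAA34. The stretches below are from the 7 Aux/IAA members that changed in a main comparison, to show how alike this site is in genes that moved differently. They are 33 bases each from the RefSeq annotation of TAIR10.1, 5′ to 3′ on the coding strand, with the word in capitals. They lie at chr4:8361436-8361468 (IAA1, plus strand), chr3:8181384-8181416 (IAA2, minus), chr3:5264307-5264339 (IAA19, plus), chr4:8349475-8349507 (IAA14, minus), chr3:1289727-1289759 (IAA16, minus), chr5:9033812-9033844 (IAA28, plus) and chr4:15583942-15583974 (IAA29, plus), all in coding exons.
IAA1: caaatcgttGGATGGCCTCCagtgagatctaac
IAA2: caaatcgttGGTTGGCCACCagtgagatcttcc
IAA19: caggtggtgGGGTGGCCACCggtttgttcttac
IAA14: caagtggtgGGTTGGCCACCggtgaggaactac
IAA16: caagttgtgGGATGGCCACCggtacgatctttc
IAA28: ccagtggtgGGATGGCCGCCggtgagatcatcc
IAA29: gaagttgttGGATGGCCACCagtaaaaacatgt

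Auxin response factors bind DNA at auxin response elements, whose classic form is TGTCTC. Searched on both strands in the 300 bases before each annotated start, TGTCTC was present in 14 of 36 members (38.9%), against 3558 of 27443 protein-coding genes (13.0%). It was found in 11 of 29 Aux/IAA and 3 of 7 GH3 members. The looser word TGTCNN, which contains TGTCTC, was in 32 of 36 members (88.9%) and in 80.6% of all such windows. Among the 9 members that changed in a main comparison, the 3 that hold TGTCTC are IAA19, with 3 copies, and IAA1 and GH3.3, with 1 copy each. IAA2, IAA14, IAA16, IAA28, IAA29 and GH3.1 have none in this window. A match is a description of letters and not a shown binding site. The windows of IAA19, IAA1 and GH3.3 are printed below with that of IAA2, the member with the largest rise with nitrate among those called, for contrast. They come from RefSeq TAIR10.1, 5′ to 3′ on the gene's strand, at chr3:5263701-5264000 (IAA19, plus), chr4:8360696-8360995 (IAA1, plus), chr2:9866563-9866862 (GH3.3, minus) and chr3:8182096-8182395 (IAA2, minus). Capitals mark TGTCTC or its reverse complement GAGACA.
IAA19: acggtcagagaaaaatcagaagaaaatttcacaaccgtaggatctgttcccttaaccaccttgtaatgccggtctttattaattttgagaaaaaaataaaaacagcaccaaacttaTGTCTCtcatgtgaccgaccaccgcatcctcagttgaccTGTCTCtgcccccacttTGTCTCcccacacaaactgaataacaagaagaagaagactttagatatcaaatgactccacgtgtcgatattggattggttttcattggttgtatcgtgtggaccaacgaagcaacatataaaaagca
IAA1: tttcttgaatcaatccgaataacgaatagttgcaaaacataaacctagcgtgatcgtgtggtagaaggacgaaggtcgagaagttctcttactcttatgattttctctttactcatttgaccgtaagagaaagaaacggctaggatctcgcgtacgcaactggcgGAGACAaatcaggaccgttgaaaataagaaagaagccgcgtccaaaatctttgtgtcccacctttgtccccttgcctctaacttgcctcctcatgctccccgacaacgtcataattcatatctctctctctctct
GH3.3: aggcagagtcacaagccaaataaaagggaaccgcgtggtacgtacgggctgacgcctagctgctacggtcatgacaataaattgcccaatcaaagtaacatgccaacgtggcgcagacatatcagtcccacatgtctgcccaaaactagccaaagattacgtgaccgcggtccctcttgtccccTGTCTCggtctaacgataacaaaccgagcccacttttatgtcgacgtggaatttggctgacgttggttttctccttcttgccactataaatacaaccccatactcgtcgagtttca
IAA2: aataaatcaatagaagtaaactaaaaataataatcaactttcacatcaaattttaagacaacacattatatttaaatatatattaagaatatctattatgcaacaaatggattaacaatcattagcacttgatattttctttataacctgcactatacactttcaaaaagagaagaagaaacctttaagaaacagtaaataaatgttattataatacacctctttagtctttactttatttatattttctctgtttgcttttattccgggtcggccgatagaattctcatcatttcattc

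The wild type libraries ask which members respond to nitrate within 15 min. The Aux/IAA genes IAA2 and IAA19 rose, the amido synthetase gene GH3.3 fell, and the other 25 tested members did not pass the test. A gene was called changed at a Benjamini-Hochberg adjusted p below 0.05 in edgeR's quasi-likelihood test, adjusted over all 20288 genes. Over all genes tested, 5.95% were called in this comparison (3.56% higher and 2.39% lower), against 3 of the 28 tested members (10.7%). The median log2 difference was 0.04 over the tested members and -0.02 over all genes tested. A total of 9 of the 28 tested members had an unadjusted p below 0.05, against 4351 of all 20288 genes tested.

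IAA2 (AT3G23030) encodes a short-lived nuclear repressor of the family. Its level was 59.97, 95.9 and 66.2 CPM in the KCl libraries and 240, 240 and 146 CPM in the KNO3 libraries of wild type. Every KNO3 library lay above every KCl library, with KNO3 replicate 3 well below the other two. The level was 2.81-fold higher with nitrate (log2 difference 1.49 ± 0.28 SE, edgeR adjusted p = 0.0102). The call held in all 16 alternative analyses, with a log2 difference from 1.35 to 1.73.

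IAA19 (AT3G15540), known from mutants with weak bending of the hypocotyl towards light and against gravity, was lower in level. It stood at 4.67, 5.48 and 5.87 CPM with KCl and at 8.85, 8.84 and 10.3 CPM with KNO3. The groups did not overlap. The level rose 1.77-fold (log2 0.83 ± 0.17 SE, edgeR adjusted p = 0.0168). The call was lost without KCl replicate 1 (adjusted p = 0.0845), KCl replicate 2 (0.0613), KNO3 replicate 1 (0.0515) or KNO3 replicate 3 (0.0647), or without replicate 3 of every group (0.0522), with log2 differences from 0.73 to 0.89 over all alternatives.

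GH3.3 (AT2G23170), which couples auxin to amino acids, went the other way. Its level was 7.39, 10.3 and 11.4 CPM with KCl and 4.84, 4.19 and 4.88 CPM with KNO3. All 3 KNO3 libraries lay below all 3 KCl libraries, and the KNO3 libraries were close together. The log2 difference was -1.03 ± 0.22 SE (edgeR adjusted p = 0.0217). Leaving out KCl replicate 2 (adjusted p = 0.0919), KCl replicate 3 (0.0645), KNO3 replicate 1 (0.0718) or KNO3 replicate 3 (0.0572), or replicate 3 of every group (0.0909), ended the call, and the sign held in every alternative.

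IAA1 (AT4G14560), another short-lived Aux/IAA repressor, was 4.91, 4.01 and 4.77 CPM with KCl and 9.43, 8.15 and 7.72 CPM with KNO3. These groups did not overlap either, but the test was not passed (log2 0.89 ± 0.26 SE, edgeR adjusted p = 0.0705). It was passed without icpk replicate 2 (adjusted p = 0.0280) or icpk replicate 3 (0.0182), which are not among the libraries compared but enter the shared fit, and with the 6 wild type libraries alone (0.0122) or DESeq2 (0.0197). The largest uncalled difference among the tested members was that of IAA29, at log2 1.45 ± 0.53 SE (edgeR adjusted p = 0.147), on a pooled 12 counts with KCl and 38 with KNO3. Of those 12, 10 were in KCl replicate 1, and the log2 difference was 2.88 without that library (adjusted p = 0.0514) and 0.94 without KCl replicate 2 (0.397). IAA29 passed the count filter only through its KNO3 libraries of wild type, so its difference is partly set by that selection. GH3.1 had a log2 difference of 0.63 ± 0.26 SE (adjusted p = 0.193) and IAA14 of 0.39 ± 0.15 SE (0.160).

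**Figure D1:**
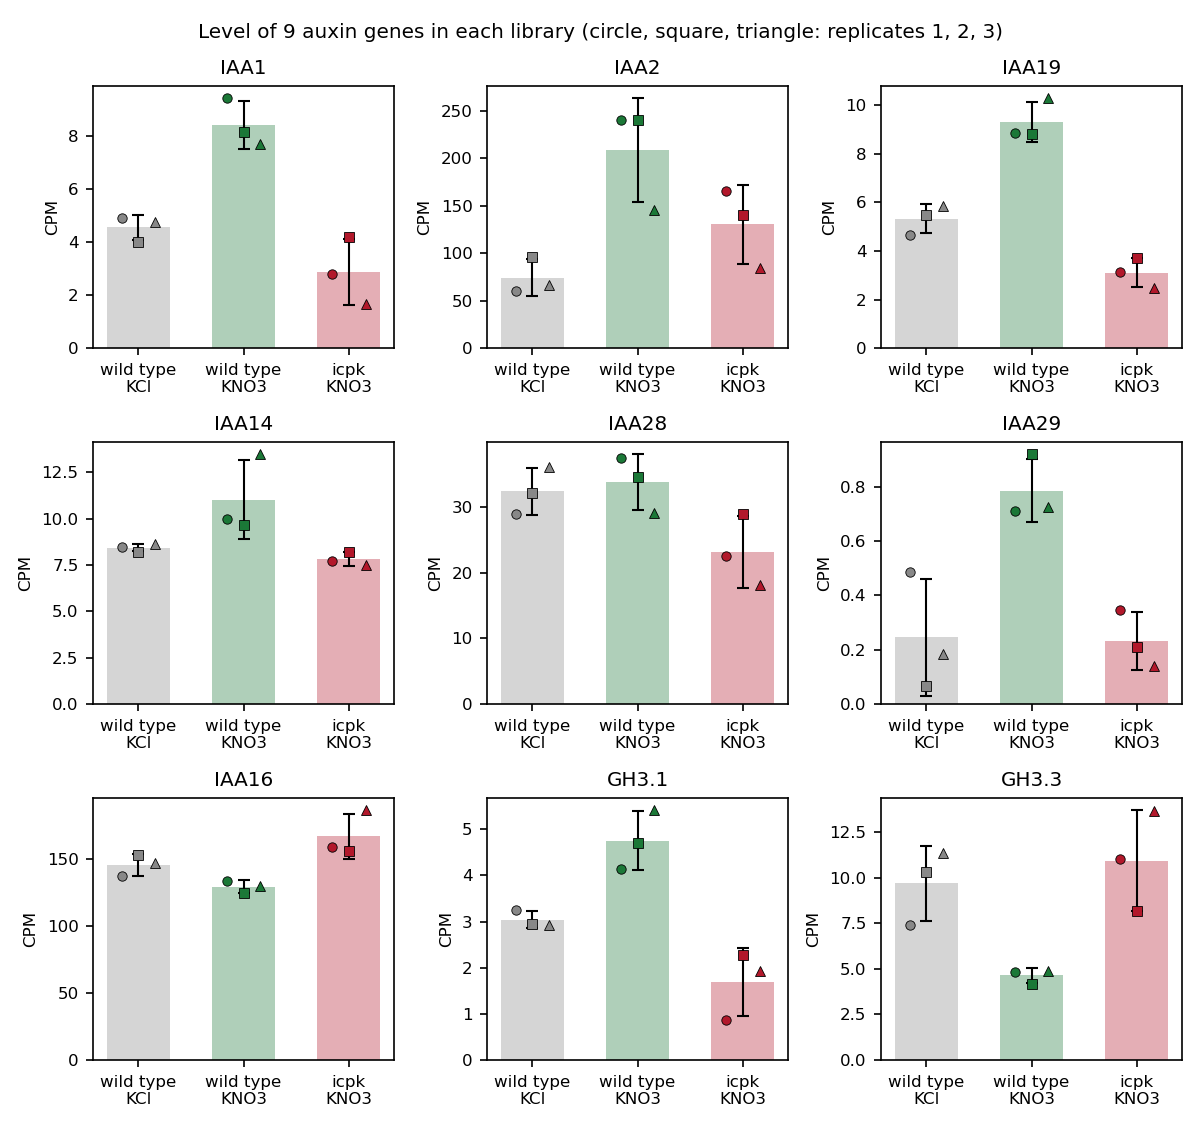
Level in CPM (linear axis from 0) of the 9 members called in at least 1 main comparison, in each of the 9 libraries. Bars are means, error bars are SD (n = 3), and symbols give the replicate number: IAA1, IAA19 and GH3.1 are lowest in the icpk group, while GH3.3 is lowest in wild type with KNO3.

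For the other tested members the log2 differences with nitrate ran from -0.44 (IAA3) to 0.26 (IAA30), and the abundant family members IAA9 (0.08 ± 0.09 SE), IAA8 (0.05 ± 0.10 SE) and IAA7 (0.03 ± 0.11 SE) differed by less than their errors. The groups did not overlap in 8 members that were higher and 7 that were lower, of 28, which is to be read against 26.4% of all tested genes (12.3% higher and 14.1% lower). The other GH3 genes gave -0.27 ± 0.24 SE for GH3.5, 0.24 ± 0.31 SE for GH3.6, -0.19 ± 0.11 SE for GH3.17 and -0.09 ± 0.23 SE for GH3.2. GH3.6 was uneven between libraries, at 43.4, 27.8 and 55.9 CPM in wild type with KNO3 against 34.1, 35.8 and 37.8 CPM with KCl.

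**Figure D2:**
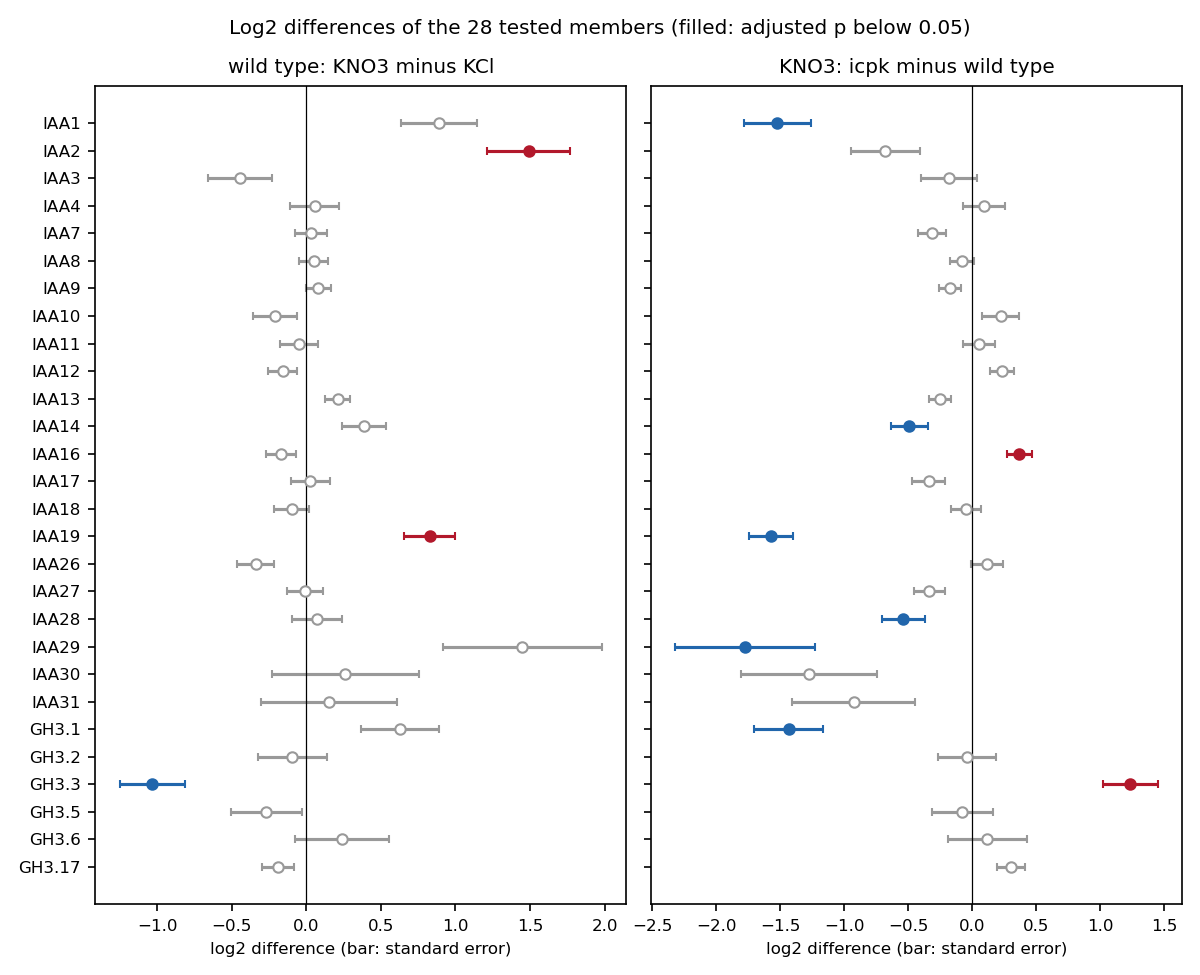
Log2 differences (x axis) of the 28 tested members, with bars for the standard error. Left, wild type KNO3 minus KCl, with IAA2 at 1.49, IAA19 at 0.83 and GH3.3 at -1.03 called. Right, icpk minus wild type with KNO3, where 6 filled points lie below 0 and 2 above.

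The icpk libraries ask which members differ after nitrate when the 3 kinases are disturbed. IAA1, IAA14, IAA19, IAA28, IAA29 and GH3.1 were lower in icpk than in wild type with KNO3, and IAA16 and GH3.3 were higher. Of all genes tested, 22.7% were called in this comparison (11.3% higher and 11.4% lower), and 8 of 28 tested members (28.6%) were. The members' share thus lay near that of all genes. The median log2 difference was -0.18 over the tested members, -0.28 over the 22 Aux/IAA genes and 0.04 over the 6 GH3 genes, against 0.01 over all genes. Unadjusted p was below 0.05 for 16 of the 28 tested members, against 7389 of all 20288 genes tested.

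IAA19 was 3.13, 3.70 and 2.49 CPM in icpk, below all 3 wild type KNO3 libraries and also below all 3 KCl libraries. Against wild type with KNO3 the level was 33.6% (log2 -1.57 ± 0.17 SE, edgeR adjusted p = 0.000672). The call held in all 16 alternatives, from -1.73 to -1.37.

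IAA1 was 2.78, 4.18 and 1.66 CPM in icpk, all 3 below the wild type KNO3 libraries. Icpk replicate 2 lay within the range of the KCl libraries. The level was 34.8% of wild type with KNO3 (log2 -1.52 ± 0.26 SE, edgeR adjusted p = 0.00356), and the call held in all 16 alternatives, from -1.94 to -1.26.

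GH3.1 (AT2G14960), a member of the amido synthetase family, was 3.26, 2.94 and 2.93 CPM with KCl and 4.13, 4.71 and 5.41 CPM after KNO3 in wild type. In icpk it was 0.869, 2.27 and 1.94 CPM, with replicate 1 the lowest. No icpk library reached a wild type one. The log2 difference from wild type with KNO3 was -1.43 ± 0.27 SE (edgeR adjusted p = 0.00535), and the call was lost in 1 of 16 alternatives, without replicate 3 of every group (adjusted p = 0.0630).

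GH3.3 was 11.04, 8.15 and 13.6 CPM in icpk, so its 3 libraries lay above those of wild type with KNO3 and overlapped those with KCl. It was 2.35-fold higher than in wild type with KNO3 (log2 1.23 ± 0.22 SE, edgeR adjusted p = 0.00403). All 16 alternatives kept the call, from 1.03 to 1.42.

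The other 4 calls rested on smaller differences or few counts. IAA14 (AT4G14550) encodes the repressor whose stabilised form blocks lateral root initiation, and it neighbours IAA1 on chromosome 4. It was 8.46, 8.21 and 8.61 CPM with KCl, 9.95, 9.64 and 13.5 CPM after KNO3 in wild type and 7.73, 8.20 and 7.47 CPM in icpk. Wild type KNO3 replicate 3 stood above the rest. The log2 difference between icpk and wild type was -0.49 ± 0.15 SE (edgeR adjusted p = 0.0340). It lost the call without wild type KNO3 replicate 1 (0.0534) or 3 (0.116, at log2 -0.33), or without icpk replicate 1 (0.0701), 2 (0.0591) or 3 (0.0831), with the 6 libraries compared (0.0620) and with replicate 3 of every group left out (0.197).

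IAA28 (AT5G25890), another repressor of lateral root formation when stabilised, was 29.0, 32.2 and 36.1 CPM with KCl, 37.6, 34.7 and 29.2 CPM after KNO3 in wild type and 22.5, 29.0 and 18.1 CPM in icpk. The highest icpk library almost met the lowest wild type KNO3 library. The log2 difference was -0.54 ± 0.17 SE (edgeR adjusted p = 0.0399). The test was no longer passed without KCl replicate 2 (0.0557), wild type KNO3 replicate 1 (0.138) or 2 (0.0787), or icpk replicate 1 (0.0908) or 3 (0.108), with the 6 libraries compared (0.0586) or with replicate 3 of every group left out (0.0744).

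IAA29 (AT4G32280), a member linked to hypocotyl growth, had 10, 1 and 1 counts with KCl, 11, 16 and 11 after KNO3 in wild type and 4, 4 and 2 in icpk. In CPM the wild type KNO3 libraries were 0.711, 0.918 and 0.725 and the icpk libraries 0.348, 0.212 and 0.138, with no overlap. IAA29 passed the count filter only through the wild type KNO3 libraries, where it was highest. This lack of overlap and the call are therefore partly set by that selection. The log2 difference was -1.78 ± 0.54 SE (edgeR adjusted p = 0.0395). It is the least stable call, kept in 6 of 16 alternatives. It was lost with the replicate number as a block (adjusted p = 0.0502), in DESeq2 (0.0735), with replicate 3 of every group left out (0.199) and without KCl replicate 3 (0.0514), wild type KNO3 replicate 1 (0.0853), 2 (0.0932) or 3 (0.0774), or icpk replicate 1 (0.0519), 2 (0.106) or 3 (0.118).

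IAA16 (AT3G04730), whose stabilised form dampens auxin responses, was the abundant exception among the called Aux/IAA genes. Its level was 137, 153 and 147 CPM with KCl, 134, 124 and 130 CPM after KNO3 in wild type and 159, 156 and 186 CPM in icpk. Every icpk library lay above every wild type library. It was 1.29-fold higher than in wild type with KNO3 (log2 0.37 ± 0.10 SE, edgeR adjusted p = 0.0243). The call ended without wild type KNO3 replicate 1 (0.0620), 2 (0.0584) or 3 (0.0614), or icpk replicate 3 (0.0787), with the 6 libraries compared (0.0552) and with replicate 3 of every group left out (0.161).

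IAA2, which had the largest rise with nitrate among the called members, was 166, 141 and 84.5 CPM in icpk. Replicate 3 was the lowest library in both KNO3 groups, and the groups overlapped, although each icpk library lay below the wild type KNO3 library of the same number. The test without a block was not passed (log2 -0.68 ± 0.27 SE, edgeR adjusted p = 0.0963). With the replicate number as a block it was (-0.69 ± 0.19 SE, adjusted p = 0.0322), and also in DESeq2 without a block (-0.69, adjusted p = 0.0378). The block also brought in IAA17 (-0.35, adjusted p = 0.0369) and IAA27 (-0.35, 0.0409), so that 8 members were lower and 2 higher, against 23.5% of all genes called with it.

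Of the uncalled members, IAA13 (-0.25 ± 0.08 SE, edgeR adjusted p = 0.0540), IAA7 (-0.31 ± 0.11 SE, 0.0631) and GH3.17 (0.30 ± 0.11 SE, 0.0666) came nearest to the threshold. IAA13 passed with RLE size factors (0.0499), IAA7 without wild type KNO3 replicate 2 (0.0376) or with DESeq2 (0.0462), IAA27 without icpk replicate 3 (0.0259) and GH3.17 without icpk replicate 1 (0.0336). IAA30 and IAA31, low members without the degron word, gave -1.28 ± 0.53 SE (0.111) and -0.93 ± 0.48 SE (0.192). Like IAA29, IAA30 and IAA31 would not have passed the count filter without the wild type KNO3 libraries. Their differences are therefore partly set by that selection. IAA29 and IAA30, but not IAA31, are among the lower members without overlap given next. Libraries of icpk and wild type with KNO3 did not overlap in 4 members that were higher and 12 that were lower, of 28, against 39.6% of all tested genes (19.8% higher and 19.8% lower).

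Replicate 3 of icpk also stood apart in the abundant genes GH3.6 and GH3.5. GH3.6 was 35.5, 30.3 and 71.8 CPM in icpk, and replicate 3 was the highest library in both KNO3 groups. GH3.5 was 57.9, 60.8 and 56.8 CPM with KCl, 52.1, 38.1 and 55.9 CPM after KNO3 in wild type and 38.5, 32.5 and 67.4 CPM in icpk. The icpk range enclosed that of wild type with KNO3, and the log2 difference was -0.08 ± 0.24 SE (edgeR adjusted p = 0.844).

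**Figure D3:**
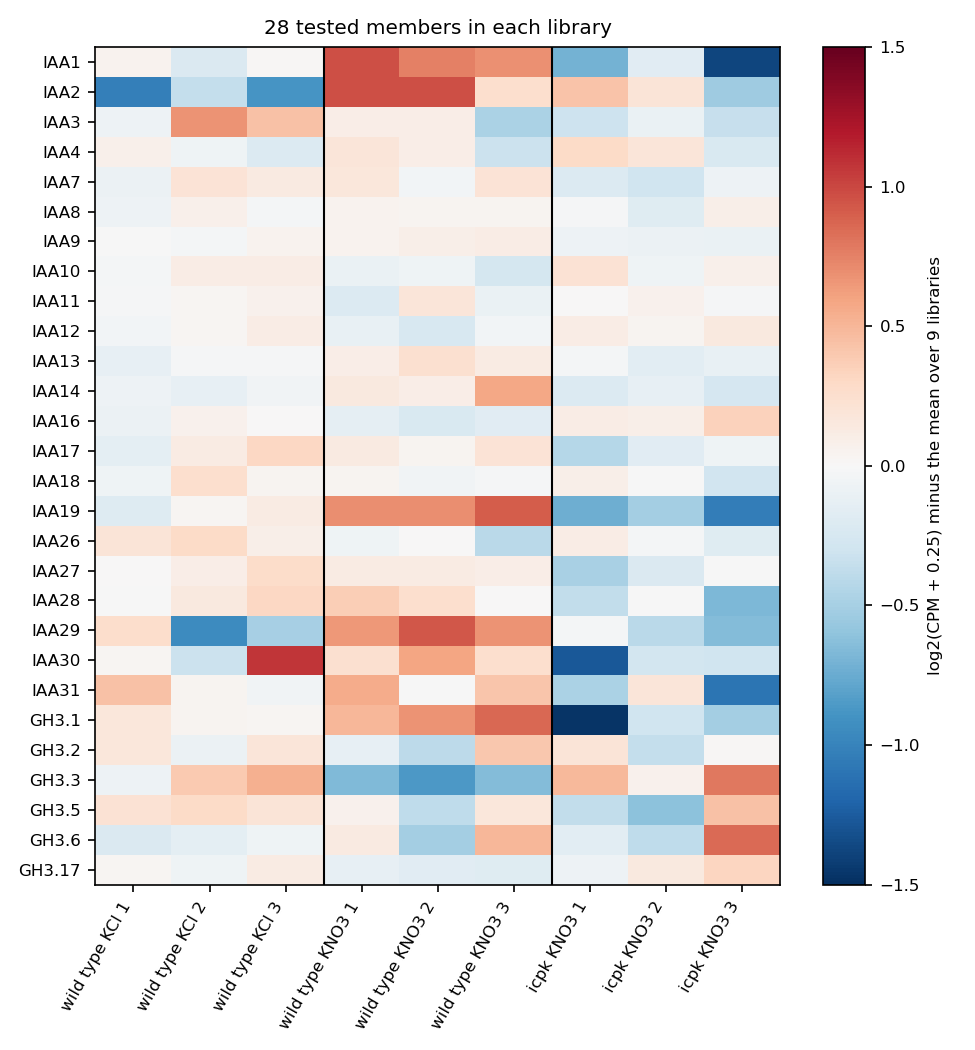
Log2(CPM + 0.25) of the 28 tested members in each of the 9 libraries, as the difference from the gene's mean over the libraries (red above, blue below). IAA1 and IAA19 are above their mean in all 3 wild type KNO3 libraries and below it in all 3 icpk libraries.

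The members called in both main comparisons were IAA19 and GH3.3, each with opposite signs. The comparisons share the wild type KNO3 libraries, so an unusual value there moves both and the signs are not independent. The secondary comparison set icpk with KNO3 beside the KCl libraries of wild type and shares libraries with both. It called 6.99% of all genes (3.15% higher and 3.84% lower). Of the 28 tested members 1 was lower, IAA19 (log2 -0.75 ± 0.18 SE, edgeR adjusted p = 0.0347), and 0 were higher. Limma voom called 0 members in either direction, and DESeq2 called 1 higher, IAA2, and 1 lower. An unadjusted p below 0.05 in edgeR was found for 9 of the 28 tested members, against 4485 of all 20288 genes tested. IAA2 differed by 0.81 ± 0.27 SE (adjusted p = 0.111, or 0.0485 with the replicate block), GH3.3 by 0.20 ± 0.21 SE (0.630), IAA1 by -0.63 ± 0.28 SE (0.210) and GH3.1 by -0.81 ± 0.28 SE (0.124). IAA19 kept its call here in 7 of 16 alternatives. It was lost with the replicate block (0.0538), limma voom (0.0523), the 6 libraries compared (0.0696) and replicate 3 of every group left out (0.222), and without KCl replicate 2 (0.127) or 3 (0.104), wild type KNO3 replicate 1 (0.0575), or icpk replicate 1 (0.0743) or 3 (0.101). Single omissions also brought calls in: IAA2 without icpk replicate 3 (0.0490), IAA1 (0.0428) and IAA28 (0.0415) without icpk replicate 2, IAA3 without KCl replicate 1 (0.0308) and GH3.5 without icpk replicate 3 (0.0318).

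Levels between members were compared as CPM per kilobase of exon. With KCl the highest level was that of IAA9 (103 ± 2.85 SD, n = 3), above every other member in all libraries. IAA16 (71.9 ± 3.93), IAA8 (64.6 ± 3.64) and IAA2 (54.5 ± 14.2) followed, with ranges that overlapped between neighbours in this order. In wild type with KNO3, IAA2 had the highest mean (153 ± 40.0), although its lowest library (107) lay within the range of IAA9 (107 to 111). In icpk, IAA9 (96.4 ± 0.826) and IAA2 (95.9 ± 30.6) did not differ beyond their spread. Among GH3 genes, GH3.5 (24.8 ± 0.862), GH3.6 (15.5 ± 0.786) and GH3.17 (15.1 ± 0.995) were highest with KCl, and GH3.3 (4.57 ± 0.971), GH3.2 (2.54 ± 0.277) and GH3.1 (1.36 ± 0.0827) lay well below them.

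**Figure D4:**
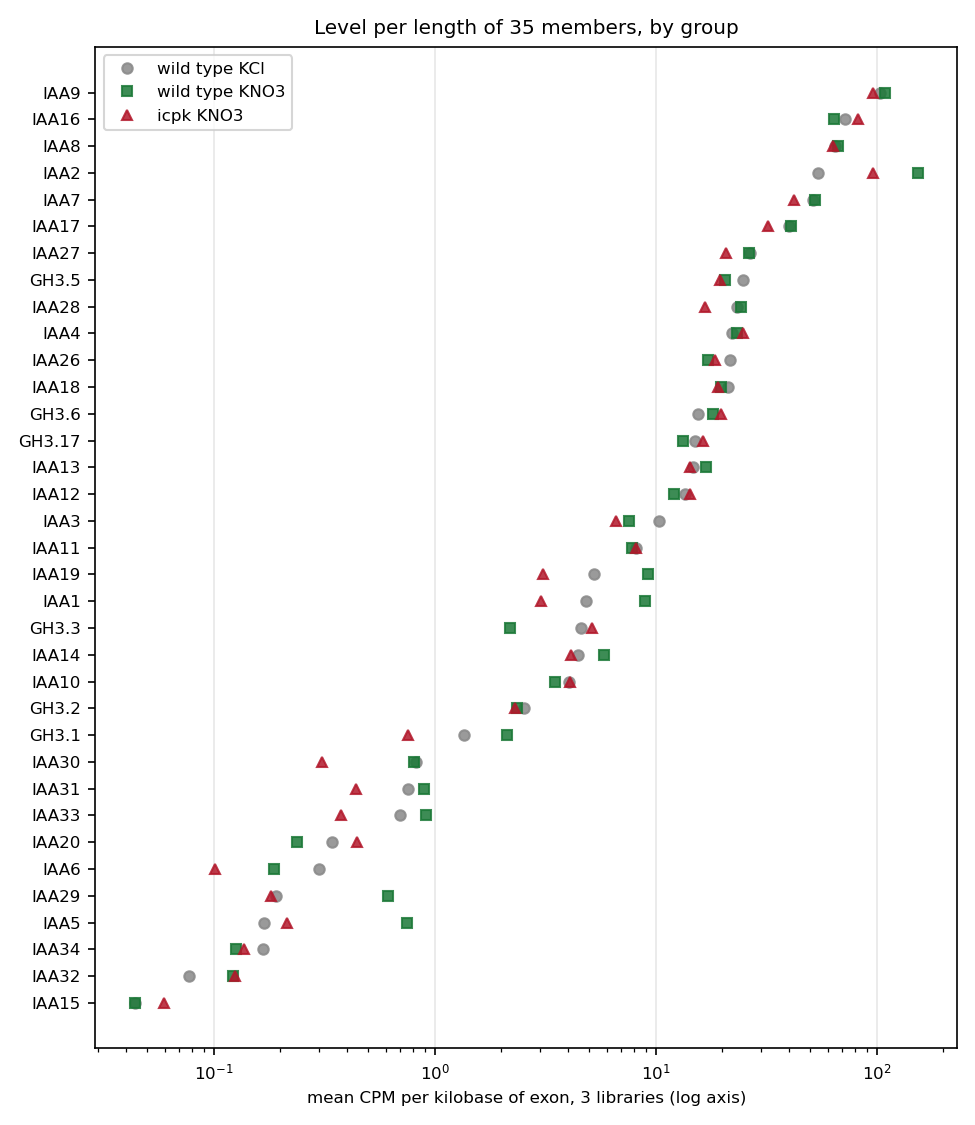
Mean CPM per kilobase of exon (log axis) in the 3 groups for 35 members, in the order of their KCl level. GH3.4, with 1 count in all, is left out. IAA2 moves from 54.5 with KCl to 153 in wild type with KNO3 and 95.9 in icpk, and IAA7 and IAA17 hold the same place in all 3 groups.

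The 8 members with too few counts for the test were IAA5, IAA6, IAA15, IAA20, IAA32, IAA33, IAA34 and GH3.4. IAA5 (AT1G15580) had 3, 1 and 1 counts with KCl, 9, 10 and 9 after KNO3 in wild type and 0, 3 and 5 in icpk. Its wild type KNO3 libraries were above all others. When genes were not filtered, its log2 difference was 2.18 with nitrate (edgeR adjusted p = 0.0955) and -1.67 for icpk against wild type (0.0825). IAA33 had 17, 6 and 2 counts with KCl, 9, 11 and 13 after KNO3 in wild type and 1, 8 and 5 in icpk. In CPM its KCl libraries overlapped both other groups, and all icpk libraries (0.0869, 0.423 and 0.346) lay below all wild type KNO3 libraries (0.581, 0.631 and 0.857). Each of IAA6, IAA15, IAA20, IAA32 and IAA34 had 9 counts or fewer in every library. GH3.4 had a single count, in wild type KNO3 replicate 2. Differences in these genes were not detectable at this depth.

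The authors' deposited table for nitrate, made with another tool, listed 30 members with an adjusted p. In that table IAA1 (adjusted p = 0.0230), IAA2 and IAA19 were higher and GH3.3 was lower below 0.05, and 8.91% of all genes with a value were. For icpk against wild type, the authors' deposited table listed 34 members with an adjusted p and put 3 higher (IAA16, GH3.3 and GH3.17) and 9 lower (IAA1, IAA2, IAA9, IAA13, IAA14, IAA19, IAA27, IAA28 and GH3.1). Its background was 22.8%. In the authors' deposited table IAA29 was at an adjusted p of 0.0645.

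The other genes of the auxin pathway were described from lists that do not overlap the members. Among the receptors, AFB3 and AFB4 rose with nitrate and the other 4 were not called. AFB3, an auxin receptor known to respond to nitrate in roots, went from 48.6 ± 3.4 to 112 ± 2.9 CPM (SD, n = 3; log2 1.20 ± 0.12 SE, edgeR adjusted p = 0.000151). AFB4 went from 14.3 ± 0.44 to 28.6 ± 1.6 CPM (log2 1.01 ± 0.11 SE, adjusted p = 0.000271). In icpk, AFB4 was lower than in wild type with KNO3, at 20.6 ± 2.5 CPM (log2 -0.47 ± 0.11 SE, adjusted p = 0.0117). AFB3 was not called there. The list's median was 0.00 with nitrate and 0.15 in icpk. Of the 6 receptors, 33.3% were called with nitrate and 16.7% in icpk, against 5.95% and 22.7% of all genes tested.

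Of 15 ARF genes, ARF10 fell with nitrate (log2 -0.42, edgeR adjusted p = 0.0233) and 14 were not called, with a median of -0.06. With the replicate block ARF9 was called higher (adjusted p = 0.0323, against 0.0779 without it). The call of ARF10 was lost without KCl replicate 1 (0.0903), 2 (0.0671) or 3 (0.0616) or KNO3 replicate 1 (0.0976). In icpk, MP, the activating ARF that patterns the embryo and vasculature, was higher (0.43, adjusted p = 0.0129). ARF19, an activator of lateral root genes, was lower (-0.44, 0.0142). MP was not called without icpk replicate 1 (0.0535). The median in icpk was also -0.06. The share of ARF genes called was 6.67% with nitrate and 13.3% in icpk, against 5.95% and 22.7% of all genes tested.

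SAUR genes are small early auxin genes tied to cell expansion, and 9 of the 24 listed could be tested. AT4G34760 rose from 2.97 ± 0.53 to 16.7 ± 3.6 CPM with nitrate (SD, n = 3; log2 2.55 ± 0.20 SE, edgeR adjusted p = 2.17e-05), the largest rise among the genes of the lists. AT4G38860 also rose (1.11, adjusted p = 0.0149, but 0.0597 without KCl replicate 1 and 0.0633 without KCl replicate 2). SAUR63 fell (-1.84, adjusted p = 0.0256). Its call was lost without KCl replicate 1 (0.0579) or 2 (0.128) or KNO3 replicate 3 (0.0898). In icpk, AT4G38860 was higher than in wild type with KNO3 (0.78, adjusted p = 0.0150), which was lost without wild type KNO3 replicate 1 (0.0642) or 3 (0.0550) or icpk replicate 1 (0.0563). SAUR genes lie in clusters of near-identical copies, so their counts are uncertain. The medians were -0.63 with nitrate and 0.07 in icpk. Of the 9 tested, 33.3% were called with nitrate and 11.1% in icpk, against 5.95% and 22.7% of all genes tested.

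Of 12 tested genes among other early auxin genes, 1 rose and 1 fell with nitrate, with a median of -0.20. This is 16.7%, against 5.95% of all genes tested. PID, the kinase that directs auxin exporters, rose (log2 0.89, edgeR adjusted p = 0.0217). It lost the call without KCl replicate 1 (0.0912) or 2 (0.0891) or KNO3 replicate 1 (0.0824) or 3 (0.0779). MYB77, a partner of ARFs, fell (-0.54, adjusted p = 0.0423) but kept the call in 6 of 16 alternatives. Single omissions that ended it were KCl replicate 1 (0.0779), 2 (0.161) or 3 (0.0925), KNO3 replicate 1 (0.0885) or 3 (0.0731), and icpk replicate 1 (0.0662), 2 (0.0621) or 3 (0.0537).

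In icpk, 1 of these 12 was higher and 4 were lower, with a median of -0.22. This is 41.7%, against 22.7% of all genes tested (11.3% higher and 11.4% lower). The auxin exporter gene PIN3 was higher (log2 0.69, edgeR adjusted p = 0.00662). PID (-0.89, 0.00846), the organ size gene ARGOS (-0.42, 0.0230), the lateral root founder cell gene GATA23 (-1.22, 0.0362) and the lateral root primordium gene LRP1 (-0.40, 0.0434) were lower. With the replicate block, GATA23 (0.0510) and LRP1 (0.0530) were not called. ARGOS was lost without wild type KNO3 replicate 1 (0.0630) or 3 (0.0776) or icpk replicate 2 (0.0721). GATA23 was kept in 5 and LRP1 in 3 of 16 alternatives. With the 6 libraries compared, GATA23 had too few counts to be tested, which is counted here as not kept. Single omissions that ended the call of GATA23 were KCl replicate 1 (0.0542), wild type KNO3 replicate 1 (0.130) or 3 (0.0788) and icpk replicate 1 (0.0595), 2 (0.104) or 3 (0.0909). For LRP1 they were KCl replicate 1 (0.0609) or 2 (0.0531) and each of the 6 KNO3 libraries (0.0591 to 0.134). The root markers, which include root tip and root hair genes, had 6 of 20 tested lower in icpk and a median of -0.37, and 1 of 20 higher with nitrate and a median of 0.34. These shares are 30% and 5%, against 11.4% of all genes lower in icpk and 3.56% higher with nitrate. Of 13 photosynthesis genes, 1 was higher in icpk (7.69%, against 11.3% of all genes, median 0.48). With nitrate 1 was lower (7.69%, against 2.39% of all genes, median -0.46). That gene, CAB3, was not called with the block (adjusted p = 0.0585). Their part in these differences was not tested.

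The conjugation list holds GH3 relatives outside the members, conjugate hydrolases and glucosyltransferases, and 12 of 14 were tested. With nitrate, DFL2, a GH3 family gene known from hypocotyl growth in light, rose from 16.5 ± 3.0 to 41.6 ± 2.7 CPM (SD, n = 3; log2 1.30 ± 0.14 SE, edgeR adjusted p = 0.000291). It moved opposite to GH3.3 of the same family. The other 11 were not called, and the median was -0.01. In icpk, PBS3, a GH3 family enzyme of salicylic acid synthesis and not of auxin conjugation, was lower (3.94 ± 1.2 against 9.39 ± 1.8 CPM; log2 -1.26 ± 0.23 SE, adjusted p = 0.00450). ILL2, an amidohydrolase that frees auxin from conjugates, was lower as well (-0.41, 0.0122). UGT74D1, an auxin glucosyltransferase, was higher (0.43, 0.00871). With the replicate block, JAR1, the GH3 family enzyme that makes the active jasmonate conjugate, was called higher as well (adjusted p = 0.0364, against 0.0510 without it). The median was 0.02. Of the 12 tested, 8.33% were called with nitrate and 25% in icpk without the block, near the 5.95% and 22.7% of all genes tested.

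**Figure D5:**
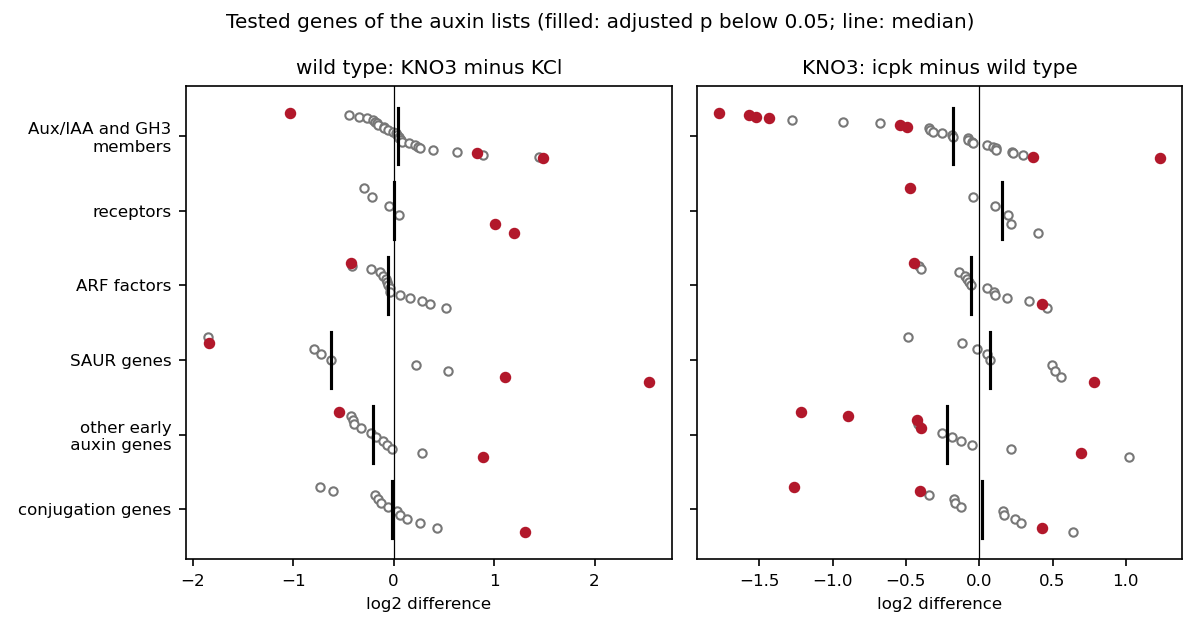
Log2 differences (x axis) of every tested gene in the members' families and in the 5 auxin lists, for nitrate in wild type (left) and icpk against wild type with KNO3 (right). Filled points passed an adjusted p of 0.05 and vertical lines are medians, which for the members are 0.04 and -0.18.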

How the data were processed

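The authors deposited raw counts of reads per gene for each of the 9 libraries, from a kit that does not mark strand, 50 cycles on 2 lanes, per the labels' protocols. Per the submitters' processing notes, the tools were TopHat, HTSeq and DESeq2 and the build TAIR10, whose versions and settings the sources used here do not give. Reads of near-identical or overlapping genes may be split or lost. The 5 summary rows that name no gene held 26.7% to 84.3% of records and were left out. Per the file headers, the authors' deposited comparison tables hold a base mean signal, log2 fold changes with errors, a test score and p-values with adjusted values. Of their columns, the log2 fold changes and adjusted p-values were used.

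Genes were filtered with filterByExpr (minimum count 10) and normalised with TMM. All 9 libraries entered 1 model with 1 mean per group and no block, tested by quasi-likelihood in edgeR 4.0.16 (limma 3.58.1, R 4.3.3). Levels (CPM) use TMM-scaled library sizes. SEs are approximate: the size of a log2 difference over the square root of F. The spread between libraries of a group, which edgeR names the biological coefficient of variation, came to 15.1%. The code was tested on simulated data. Groups come from the sample titles. Replicate numbers are shared between groups. Between wild type and icpk with KNO3, deviations from the group mean correlated at 0.123 to 0.312 for libraries of the same number and at -0.201 to 0.0775 for others, across genes, which are not replicates. The numbers may therefore pair these libraries. The main test leaves this possible pairing out, and only the replicate block takes it in. In icpk against wild type with KNO3 the block added the calls of IAA2, IAA17 and IAA27 and ended that of IAA29. The labels do not say what a number stands for. In the other comparisons the same-number values included negative ones (-0.0358 and -0.222 at the lowest).

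The 16 alternatives were RLE size factors, no filter, DESeq2 (version 1.42.0), limma voom, the replicate block, all replicate 3 libraries left out (their accessions are later), the 6 libraries compared, and each library left out. Members, lists and tests were chosen with earlier results of these data known. Described in full were all members called in a main comparison, and up to 4 called genes per list by smallest p in each comparison. IAA1 and IAA2 where uncalled, IAA5, IAA33, GH3.5 and GH3.6 were singled out after their values were seen. Sequences, gene symbols and exon lengths are from RefSeq TAIR10.1, matched by locus for 31912 of 32678 genes and for all 36 members, some of which RefSeq lists under another symbol (SHY2 for IAA3, AXR3 for IAA17). The coding word search replaced a planned protein search after the data were seen.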

Additional observations from a re-analysis of the deposited data

How the results depend on the processing

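Over the 16 alternatives, IAA2 kept its call with nitrate, and IAA1, IAA19 and GH3.3 kept theirs in icpk against wild type, in all 16. Counts of members called moved as follows. With nitrate, 2 were higher and 1 lower. Leaving out 1 library gave 1 to 3 higher and 0 to 1 lower, and leaving out replicate 3 of every group gave 1 higher and 0 lower. In icpk against wild type with KNO3, 2 were higher and 6 lower. Leaving out 1 library gave 1 to 3 higher and 3 to 6 lower, leaving out replicate 3 of every group gave 1 and 2, the 6 libraries compared gave 1 and 4, DESeq2 gave 2 and 7, and the replicate block gave 2 and 8. In icpk against the KCl libraries of wild type, 0 were higher and 1 lower. DESeq2 gave 1 higher. The replicate block gave 1 higher and 0 lower. Limma voom, the 6 libraries compared and leaving out replicate 3 of every group gave 0 lower, and leaving out 1 library gave 0 to 1 higher and 0 to 3 lower. Leaving out libraries leaves fewer residual degrees of freedom, and for other changes the cause was not tested.

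Among the 9 members called in a main comparison, the sign of an uncalled difference turned in 3 cases. With nitrate, IAA28 (log2 0.07) was at -0.0071 without wild type KCl replicate 1 and at -0.013 without wild type KNO3 replicate 1, and ranged up to 0.17 when 1 library was left out. IAA29 in icpk against wild type KCl (-0.33) ranged from -0.83 to 1.11 and was at 1.11 without wild type KCl replicate 1, which holds 10 of the 12 KCl counts. The block changed no call with nitrate among the members. Among the auxin lists it ended that of SAUR63 with nitrate (adjusted p = 0.0519) and brought in ARF9 (0.0323). Leaving out replicate 3 of every group ended the calls in icpk of PIN3 (0.0515), PID (0.0548), ILL2 (0.0602), ARF19 (0.0635) and MP (0.115). In icpk it also ended those of ARGOS (0.130), AT4G38860 (0.132), GATA23 (0.159) and LRP1 (0.190). With nitrate it ended those of ARF10 (0.0790), AT4G38860 (0.0845), PID (0.100), MYB77 (0.116) and SAUR63 (0.133). Over all genes, counts called with nitrate were 722 higher (473 to 846 when 1 library was left out) and 485 lower (125 to 1231, 809 with DESeq2 and 176 without replicate 3 of every group). In icpk against wild type they were 2286 higher (1082 to 2348) and 2313 lower (1379 to 2209), and 643 and 765 without replicate 3 of every group. Median shifts over all genes stayed under 0.1 (log2) in every scaling tried. Depth limits the 8 untested members and IAA29, IAA30 and IAA31.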
